A study of Mus musculus with 6 samples.

Results

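Cntf, LIF and gp130 signalling was followed through 10 genes: the ligands Cntf and Lif, the receptor subunits Cntfr, Lifr, Il6st and Osmr, the kinases Jak1 and Jak2, the transcription factor Stat3 and the feedback inhibitor Socs3. The genes were selected on earlier results of the same anti-miR-335 against control contrast. Their probes were taken as the gene probes whose annotation names 1 of these symbols and no other, which gave 14 of the 34967 gene probes on the array and covered 9 of the 10 genes, out of 18069 genes with such a probe. Lif had no such probe and therefore no value. RNA levels were read in 6 samples on single-colour CodeLink mouse arrays. In 3 samples, neurospheres had received an antisense oligonucleotide with 2'-O-methyl bases directed at the microRNA miR-335 (anti-miR-335), and in 3 a 2'-O-methyl oligonucleotide labelled as a nonsense or EGFP control. Neurospheres are neural precursor cells grown as free-floating spheres; all 6 cultures came from the dorsal telencephalon of C57BL/6 mouse fetuses at embryonic day 12.5. Both groups grew in serum-free medium with 20 ng/ml bFGF, 20 ng/ml EGF, 0.15 ng/ml LIF, 0.85 U/ml heparin, 20 nM progesterone and an insulin, transferrin and selenium supplement, so the LIF receptor pathway was supplied with ligand in the controls too. The labels give the treatment as lasting 24, without a unit, and do not say how many litters or cultures stand behind a sample. The replicates are described as independent with no word on what was repeated, so errors cover only the spread among these arrays. Intensities are expressed as multiples of the array median.

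CNTF and LIF belong to the interleukin-6 family of cytokines, and the receptors of both contain gp130, the product of Il6st. LIF signals through a pair of gp130 and the LIF receptor, CNTF adds the CNTF receptor alpha chain to that pair, and oncostatin M can use the oncostatin M receptor with gp130. The bound receptor activates Janus kinases, which phosphorylate STAT3, and STAT3 switches on target genes including Socs3, whose protein binds gp130 and damps the pathway. In cortical precursors this pathway is known for keeping precursors self-renewing early and for promoting astrocyte formation later.

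The oligonucleotide's target is shown first because it defines the comparison. RefSeq (build GRCm38.p6) places both mature arms of mouse miR-335 on the plus strand of chromosome 6, at chr6:30741314-30741336 for the 5p arm and chr6:30741354-30741375 for the 3p arm. They are written 5′ to 3′ with the seed, bases 2 to 8, in capitals; the labels do not say which arm the oligonucleotide pairs with, and levels of the microRNA itself were not analysed here.
mmu-miR-335-5p: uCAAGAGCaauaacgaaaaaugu
mmu-miR-335-3p: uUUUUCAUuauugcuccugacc

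The start regions of the 2 genes that differed most between the groups are shown next, from 250 bases before to 50 bases after the RefSeq transcription start (GRCm38.p6). The Cntf window lies at chr19:12765583-12765882 and the Socs3 window at chr11:117969317-117969616, both on the minus strand and written 5′ to 3′ along the gene. Capitals mark the AP-1 motif TGANTCA in the Cntf window and the STAT motif TTCNNNGAA in the Socs3 window.
Cntf: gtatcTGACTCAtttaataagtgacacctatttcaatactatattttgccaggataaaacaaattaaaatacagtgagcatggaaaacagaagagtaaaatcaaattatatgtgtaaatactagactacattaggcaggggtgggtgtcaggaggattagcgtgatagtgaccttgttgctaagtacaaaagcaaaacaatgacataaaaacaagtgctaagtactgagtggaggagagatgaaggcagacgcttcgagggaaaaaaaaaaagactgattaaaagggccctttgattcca
Socs3: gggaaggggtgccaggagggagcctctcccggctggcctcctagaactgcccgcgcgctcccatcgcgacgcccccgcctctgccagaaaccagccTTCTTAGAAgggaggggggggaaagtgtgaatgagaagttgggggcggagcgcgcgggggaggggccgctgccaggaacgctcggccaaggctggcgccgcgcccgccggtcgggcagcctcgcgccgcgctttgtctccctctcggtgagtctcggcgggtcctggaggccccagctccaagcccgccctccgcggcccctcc

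These motifs, and the CRE motif TGACGTCA, each read the same on both strands, do not overlap here, and were chosen after the sequences had been looked at. In Socs3 the STAT motif began 154 bases upstream of the start and was the single match among the 16 windows of the 10 genes; 8.30% of all 32851 RefSeq windows hold 1. An AP-1 motif was found 245 bases upstream in Cntf, 228 bases upstream in Lif and 4 bases downstream of the start in Osmr, and 7.81% of all windows hold 1. Jak1 had the CRE motif 101 bases upstream, as 1.79% of windows do. A match describes the letters of the window and not binding.

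Across all gene probes, 0 of 34847 tested (0%) passed an adjusted p of 0.05 by limma, and 0 of the 14 probes of the pathway did. At an unadjusted p under 0.05 stood 9.07% of all probes (4.91% higher and 4.17% lower) and 3 of the 14: Cntf and Socs3, higher in the anti-miR-335 arrays, and probe 2 of Il6st, lower. The values of the groups did not overlap for 14.9% of all probes (7.57% higher and 7.33% lower in anti-miR-335 arrays) and for 2 of the 14, Cntf (higher) and Osmr (lower). The genes were chosen with this contrast known, so their differences are given as a description, as log2 anti-miR-335 minus control with the standard error (SE) from the fit. Of the 14 probes, 7 were above background on all 6 arrays and 0 were below it on all 6, and Osmr was above it on the 5 arrays with a value; background was the negative control spots' median plus 3 scaled median absolute deviations, a limit of 0.492 to 0.692 depending on the array.

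**Figure D1:**
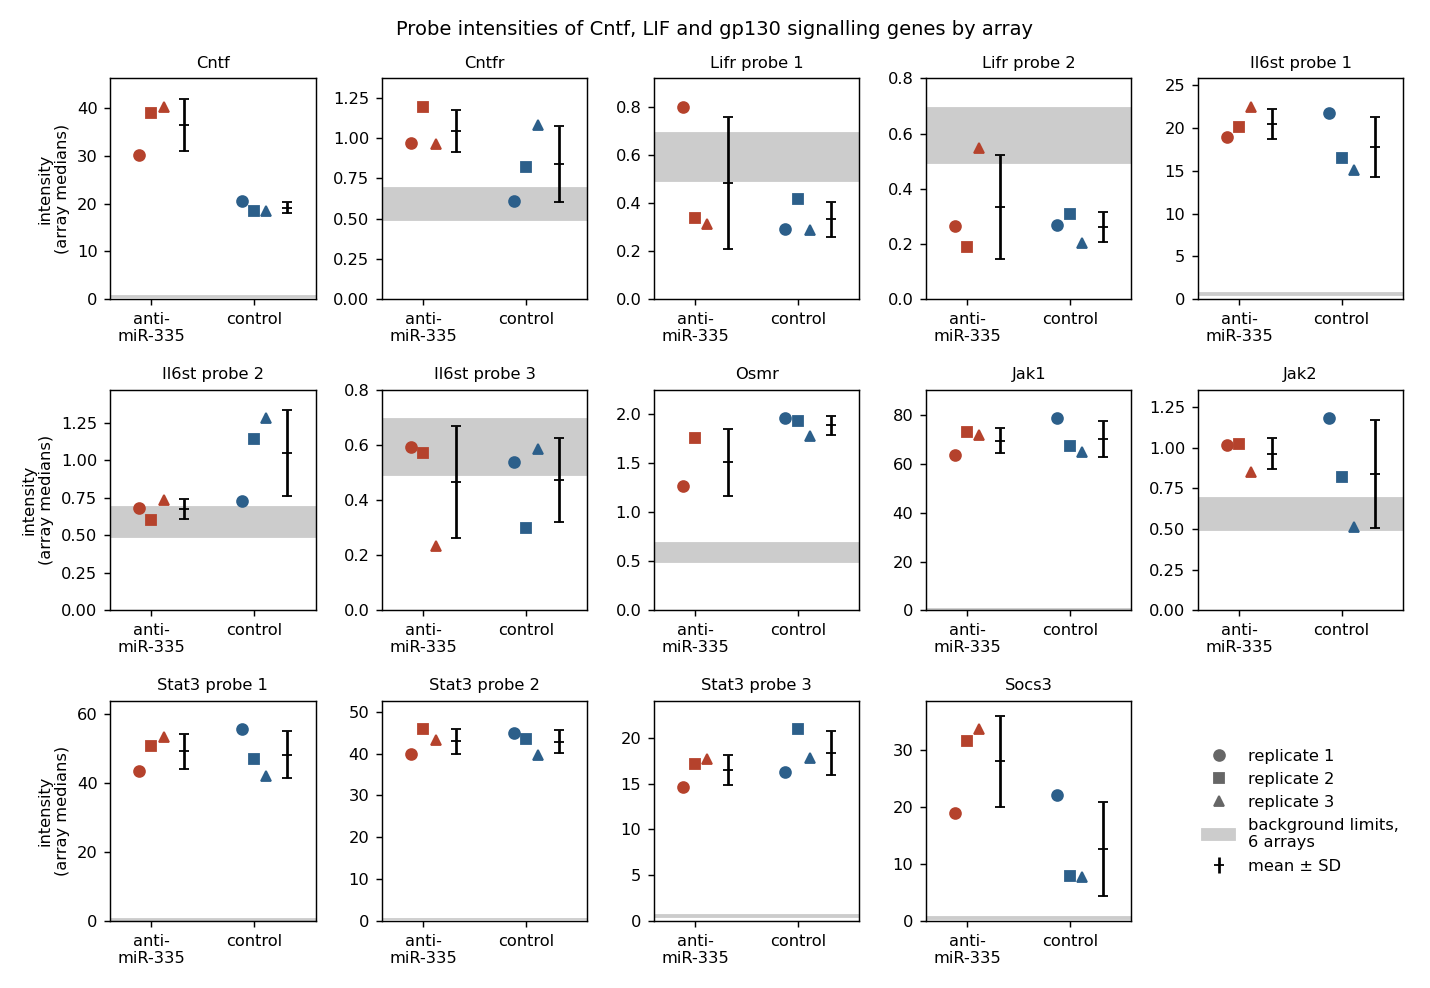
Intensity of each of the 14 probes, in array medians on a linear axis from 0, on the 3 anti-miR-335 arrays (red, left) and the 3 control arrays (blue, right), with the mean ± SD of each group and a grey band for the 6 background limits. Cntf is the probe with the clearest gap, at 30.2 to 40.1 in anti-miR-335 arrays and 18.4 to 20.6 in controls, while Socs3 overlaps through control replicate 1 at 22.1.

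Cntf, which encodes ciliary neurotrophic factor, had intensities of 30.2, 39.0 and 40.1 in anti-miR-335 arrays, against 20.6, 18.4 and 18.5 in the control arrays. All 3 anti-miR-335 values lay above all 3 control values, and the controls were tightly grouped. The group means were 36.4 ± 5.45 in anti-miR-335 arrays and 19.2 ± 1.22 in controls (SD, n = 3 each), a log2 difference of 0.92 ± 0.13 (SE), or 1.89-fold. The scanner output names transcript variant 2 of Cntf for this probe.

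Cntf lies inside a longer RefSeq gene, Gm44505, a readthrough transcript that runs from the neighbouring zinc finger gene Zfp91 through Cntf, and 2 further probes carry the joint annotation of Gm44505, Zfp91 and Cntf. The first joint probe read 49.5, 51.3 and 56.6 in anti-miR-335 arrays, against 61.5, 39.1 and 33.0 in controls. Its groups overlapped through control replicate 1, with a log2 difference of 0.29 ± 0.20 (SE), or 0.54 without that array. The second joint probe read 2.38, 2.19 and 2.05 in anti-miR-335 arrays and 2.53, 2.30 and 2.31 in controls, a log2 difference of -0.11 ± 0.14. Both joint probes overlapped between the groups. Which transcript each probe reads was not tested. Of the RefSeq genes nearest to Cntf, Keg1, Lpxn, Olfr1442, Olfr1443 and Olfr1444 had a probe naming them alone. Glyat and Fam111a come from a separate list of neighbours of the locus and were not in that nearest set. The glycine N-acyltransferase gene Glyat read 1.07, 0.274 and 0.376 in anti-miR-335 arrays against 1.21, 1.03 and 1.15 in controls (log2 difference -1.23 ± 0.43). It was above background on 1 of the 3 anti-miR-335 arrays and on all 3 controls. Keg1 differed by 0.31 ± 0.21, Fam111a by -0.21 ± 0.36, above background on 1 of the 6 arrays, and the paxillin relative Lpxn was above background on none of the 6 arrays. The nearby olfactory receptor genes Olfr1442 and Olfr1444 differed by -0.10 ± 0.24 and -0.09 ± 0.20, and Olfr1443 was above background on none of the arrays.

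Cntfr, which encodes the GPI-anchored chain that gives the receptor its affinity for CNTF, lay near background. It read 0.973, 1.19 and 0.965 in anti-miR-335 arrays, against 0.609, 0.821 and 1.08 in controls, where control replicate 1 was below its limit. The groups overlapped, and the log2 difference of 0.35 ± 0.25 came to 0.14 without that array.

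Lifr, the LIF receptor gene, was close to or under the limit on both of its probes. Probe 1 read 0.799, 0.339 and 0.312 in anti-miR-335 arrays, against 0.294, 0.416 and 0.287 in controls, and was above background only on anti-miR-335 replicate 1 (log2 difference 0.42 ± 0.41). Probe 2 read 0.265, 0.190 and 0.547 in anti-miR-335 arrays, against 0.270, 0.310 and 0.205 in controls, and was above background only on anti-miR-335 replicate 3 (0.23 ± 0.45). Each probe thus had 1 high array, a different one, and at these intensities a difference in Lifr was not detectable.

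Il6st, the gene of the shared subunit gp130, was represented by 3 probes that disagreed. Probe 1, above background on all 6 arrays, read 18.9, 20.1 and 22.4 in anti-miR-335 arrays, against 21.8, 16.5 and 15.2 in controls. Control replicate 1 sat among the anti-miR-335 values on this probe, and the log2 difference of 0.22 ± 0.14 became 0.37 without that array. Probe 2 ran the other way, at 0.684, 0.602 and 0.735 in anti-miR-335 arrays and 0.731, 1.14 and 1.28 in controls (log2 difference -0.61 ± 0.26, and -0.85 without control replicate 1). It lay close to the background limit, and there too control replicate 1 fell with the anti-miR-335 arrays. Probe 3 read 0.591, 0.572 and 0.232 in anti-miR-335 arrays and 0.538, 0.298 and 0.583 in controls, above background on anti-miR-335 replicate 2 alone (-0.09 ± 0.43).

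Osmr, which pairs with gp130 to bind oncostatin M, read 1.27 and 1.75 on anti-miR-335 replicates 1 and 2, with no value on replicate 3, against 1.96, 1.93 and 1.78 in controls. Its values were lower in the anti-miR-335 arrays without overlap, though the gap between 1.75 and 1.78 was narrow. The log2 difference was -0.34 ± 0.20 from 5 values.

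Jak1, the kinase that gp130 relies on most, read 63.8, 73.1 and 72.0 in anti-miR-335 arrays, against 78.7, 67.4 and 64.8 in controls. The groups overlapped fully, with means of 69.6 ± 5.06 in anti-miR-335 arrays and 70.3 ± 7.41 in controls (SD, n = 3 each) and a log2 difference of -0.01 ± 0.12. Jak2, a further Janus kinase that can sit on gp130, lay close to background. It read 1.02, 1.02 and 0.853 in anti-miR-335 arrays, against 1.18, 0.821 and 0.515 in controls, where replicate 3 was below its limit. The log2 difference was 0.28 ± 0.30, or 0.57 without control replicate 1 and -0.03 without control replicate 3.

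Stat3 had 3 probes, all above background on all 6 arrays, and all 3 overlapped between the groups. Probe 1 read 43.5, 50.8 and 53.4 in anti-miR-335 arrays against 55.6, 47.1 and 42.1 in controls (log2 difference 0.03 ± 0.13). Probe 2 read 39.8, 45.7 and 43.3 against 45.0, 43.6 and 39.7 in controls (0.01 ± 0.11), and probe 3 read 14.6, 17.1 and 17.7 against 16.2, 20.9 and 17.8 in controls (-0.15 ± 0.12). No Stat3 probe separated the groups. Phosphorylation of the protein was not measured.

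Socs3, the inhibitor that STAT3 induces, varied most within groups of the 14 probes, with a pooled SD of 0.69 on the log2 scale. It read 18.9, 31.4 and 33.5 in anti-miR-335 arrays, against 22.1, 7.95 and 7.76 in controls. Control replicates 2 and 3 lay below every anti-miR-335 array, but control replicate 1 lay above anti-miR-335 replicate 1, so the groups overlapped. The means were 28.0 ± 7.92 in anti-miR-335 arrays and 12.6 ± 8.22 in controls (SD, n = 3 each), and the log2 difference was 1.29 ± 0.36, or 2.44-fold. It was 1.79 without control replicate 1, 1.05 without control replicate 2 and 1.03 without control replicate 3.

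**Figure D2:**
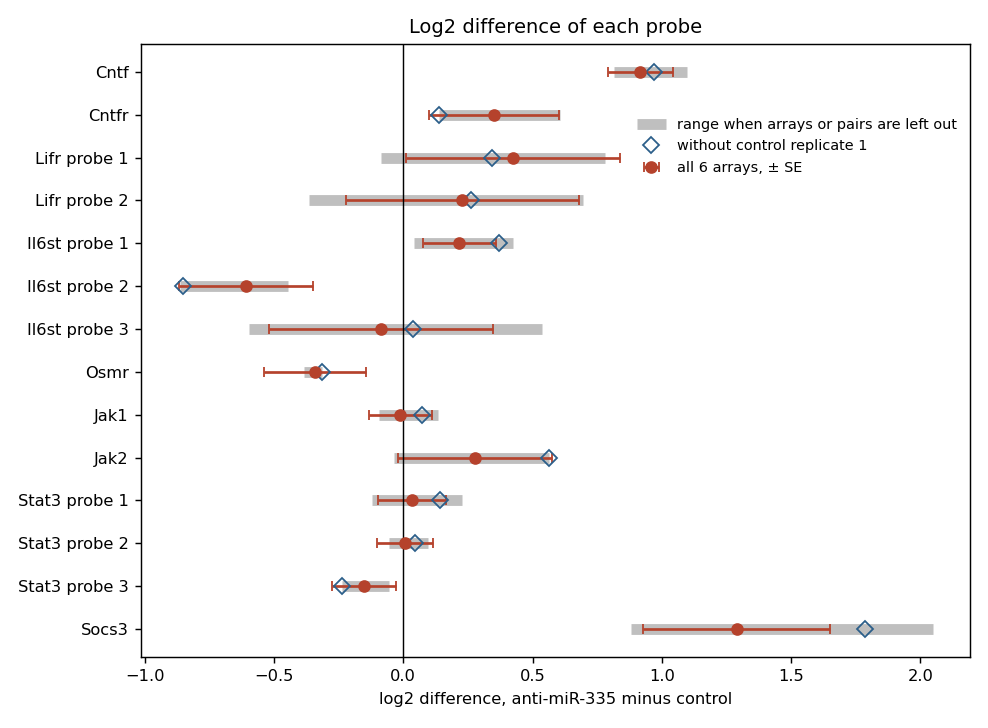
Log2 difference of each probe, anti-miR-335 minus control, on the horizontal axis, as the estimate ± SE from all 6 arrays (red), the value without control replicate 1 (open diamond) and the range when single arrays or replicate pairs are left out (grey bar). Cntf stays between 0.82 and 1.10 and Socs3 between 0.88 and 2.05, while the bars of Jak1, Jak2, both Lifr probes, Il6st probe 3 and Stat3 probes 1 and 2 cross 0.

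Control replicate 1 stood apart from the other controls on several of these genes, and the differences depend on it to different degrees. For Socs3 it lay 1.49 (log2) above the mean of the other controls, and the anti-miR-335 mean 1.79 above it. For Cntf it lay 0.16 above that mean, against 0.97 for the anti-miR-335 arrays. Jak2 (0.86 on control replicate 1, 0.57 for the anti-miR-335 mean) and probe 1 of Il6st (0.46 and 0.37) were like Socs3 in that control replicate 1 lay at or near the level of the anti-miR-335 arrays. Without control replicate 1, 3.17% of all probes passed an adjusted p of 0.05 by limma, and 2 of the 14 did, Cntf and Socs3. The same 2 passed without the whole replicate 1 pair, beside 4.57% of all probes, and with array weights, beside 1.36%; with a robust trend Cntf alone of the 14 passed, beside 0.00861%. Immediate early genes, the rapid transcriptional response to growth factors and other stimuli, also differed between control replicate 1 and the other controls. Of 24 listed, 22 were measured and 21 were above background on at least 3 arrays; their summed intensity was 466, 587 and 477 in anti-miR-335 arrays, against 414, 231 and 232 in controls. Relative to the mean of control replicates 2 and 3, the list's median was 0.85 for the anti-miR-335 arrays and 0.52 for control replicate 1. Of the 22, 20 had a positive log2 difference between the groups, beside 10333 of all 18010 genes, and 0 passed by limma. At an unadjusted p under 0.05 stood 10 higher and 0 lower, beside 6.62% of all genes higher and 3.33% lower. Not every gene ran this way: Nr4a3 was lower in anti-miR-335 arrays without overlap (log2 difference -0.22 ± 0.15), Ier5 differed by -0.17 ± 0.11, and Atf3 had its lowest value, 0.402, on control replicate 1. The part of this in the Socs3 and Cntf values was not tested.

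**Figure D3:**
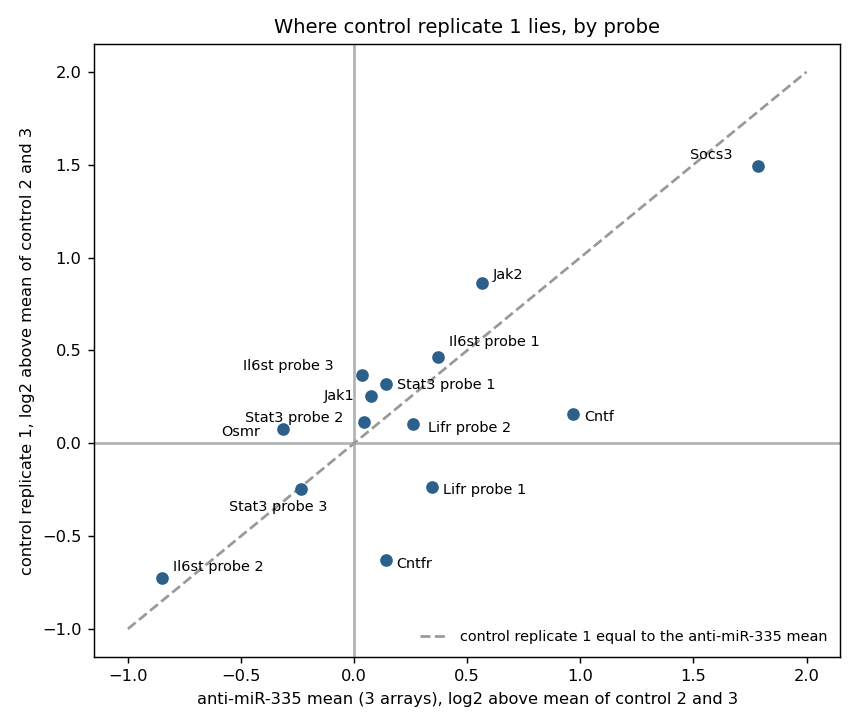
Position of control replicate 1 for the 14 probes: the vertical axis is its log2 intensity above the mean of control replicates 2 and 3, the horizontal axis is the same for the mean of the anti-miR-335 arrays, and the dashed line marks equality. Socs3 lies near the line (1.79 across, 1.49 up) and Cntf far below it (0.97 across, 0.16 up).

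Candidates for likeness to Cntf were 5239 single-symbol probes above background on all arrays with a log2 range of at least 0.5. Clone-type symbols (ending in Rik, or starting with Gm, LOC or AA to AW plus digits) were left out. The genes whose pattern over the 6 arrays was most like that of Cntf were found among these by Pearson's correlation in log2 intensity. They were Zfp185 (r = 0.999), the astrocyte water channel gene Aqp4 (0.995), the nucleoside diphosphate kinase gene Nme1 (0.994), the peptidylarginine deiminase gene Padi2 (0.993) and Sarm1, a regulator of axon degeneration (0.993). Of the 5239, 95 exceeded 0.95. Zfp185 lay just over background in controls, at 0.656 on control replicate 3, where the limit was 0.645. The 6 arrays fall into 2 groups, so any probe that separates them in the same way correlates with Cntf. In Aqp4 the likeness reads as 15.01, 17.9 and 17.9 in anti-miR-335 arrays against 11.5, 10.0 and 9.85 in controls, with the lowest anti-miR-335 value on replicate 1 and the highest control value on replicate 1, as in Cntf. Socs3 was not among the 5.

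Beyond the 10 genes, 121 of 138 further listed genes were measured, with 1 probe per gene, the brightest. They come from the lists below, of pathway genes, STAT3 target genes and astrocyte genes, and are not all components of the pathway. The astrocyte list also holds precursor and regulatory genes. Counted with them are 3 genes listed as neighbours of the Cntf locus, Glyat, Fam111a and Lpxn. By limma 0 of the 121 passed an adjusted p of 0.05 (smallest 0.333), against 0% of all 18010 genes. At an unadjusted p under 0.05 stood 18 higher and 6 lower, Glyat among the lower, beside 6.62% of all genes higher and 3.33% lower. The median log2 difference was 0.11 for the 121 and 0.05 for all genes, or 0.14 and 0.07 without control replicate 1. Positive were 76 of the 121 and 10333 of the 18010. The positive counts of the lists below are to be read beside that. Above background on at least 3 arrays were 95 of the 121 and 12477 of the 18010. The lists and all genes were not matched for intensity. Without control replicate 1, 12 of the 121 passed, 11 higher and 1 lower, against 4.13% of all genes, 3.49% higher and 0.637% lower. The groups did not overlap, with the higher values in anti-miR-335 arrays, for 18 of the 121 and for 9.48% of all genes, and with the lower values there for 8 of the 121 and for 6.25% of all genes.

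Family ligands and receptors were mostly dim. Of 8 measured ligands 4 were above background on at least 3 arrays, 5 had a positive difference, 0 passed, and the median was 0.10, or -0.08 without control replicate 1. Osm, oncostatin M, read 14.6, 15.7 and 14.9 in anti-miR-335 arrays against 15.3, 12.5 and 14.5 in controls (log2 difference 0.10 ± 0.11). Il31 differed by 0.14 ± 0.19 and the cardiotrophin gene Ctf1 by -0.02 ± 0.15, both with overlapping groups. Of the other receptor genes, 4 of 6 were measured and 1 was above background on at least 3 arrays; 2 were positive and the median was 0.02, or 0.28 without control replicate 1. The 7 other JAK and STAT genes had a median of -0.05 with 2 positive, which turned to 0.06 without control replicate 1: Jak3 differed by -0.28 ± 0.17, the kinase gene Tyk2 by -0.05 ± 0.12 and Stat2 by -0.04 ± 0.16, and none passed.

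Negative regulators other than Socs3 had a median of 0.07 over 17 measured genes, 10 positive. Pias3, whose protein binds STAT3 and blocks its binding to DNA, read 1.90, 1.25 and 1.45 in anti-miR-335 arrays, against 1.04, 1.02 and 1.04 in controls. Its groups did not overlap (log2 difference 0.55 ± 0.20). Socs7 read 1.92 and 2.05 on anti-miR-335 replicates 1 and 3, with no value on replicate 2, against 1.62, 1.41 and 1.64 in controls (0.35 ± 0.18). Pias2 differed by 0.21 ± 0.13 and Pias4 by -0.19 ± 0.12. None of these passed. The closest relatives of Socs3, Socs1 and Socs2, are named here after their values were seen: Socs1 differed by 0.16 ± 0.20 and Socs2 by 0.00 ± 0.13. Whether they differ from Socs3 in this was not tested.

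The adaptor and kinase branch, through which gp130 reaches the Ras and MAP kinase cascade, had a median of 0.13 over 14 measured genes, 11 positive and 0 past the threshold. All 14 were above background on at least 3 arrays, as were 12477 of all 18010 genes. Without control replicate 1 the median was 0.35, beside 0.07 for all genes. Map2k1 alone then passed (adjusted p = 0.0312 by limma), beside 4.13% of all genes. Sos2, a Ras exchange factor, read 6.76, 7.84 and 6.65 in anti-miR-335 arrays, against 5.96, 5.61 and 5.24 in controls (log2 difference 0.34 ± 0.11). Map2k1, the kinase MEK1, read 27.5, 27.3 and 26.6 against 25.8, 20.7 and 19.3 in controls (0.32 ± 0.12). Both were higher without overlap, and control replicate 1 was the control nearest to the anti-miR-335 arrays. The docking protein genes Gab1 (0.29 ± 0.15) and Gab2 (0.27 ± 0.18) overlapped.

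Of 43 listed STAT3 target genes 42 were measured, with 0.11 as the median log2 difference. Positive were 26 of the 42, beside 10333 of all 18010 genes. At an unadjusted p under 0.05 stood 8 higher and 3 lower, beside 6.62% and 3.33% of all genes. Without control replicate 1 the median was 0.19, beside 0.07 for all genes. By limma 7 then passed, 6 higher and 1 lower, beside 3.49% of all genes higher and 0.637% lower. Those with the smallest p were transcription factor genes that also stand in the immediate early list. Egr1 read 28.3, 42.5 and 33.8 in anti-miR-335 arrays, against 26.7, 7.52 and 5.93 in controls (1.70 ± 0.44), with control replicate 1 again close to the anti-miR-335 arrays. Fos read 150.2, 186 and 106 in anti-miR-335 arrays against 83.8, 65.3 and 59.6 in controls (1.06 ± 0.20), and Jun read 51.5, 58.6 and 58.0 against 39.7, 24.5 and 26.4 in controls (0.92 ± 0.17). Junb differed by 0.80 ± 0.21. The list was then divided by its overlap with the immediate early list, after its values had been seen. The 5 target genes that are also immediate early genes, Klf4 with these 4, had a median of 0.92 and were all positive. The 37 others had a median of 0.07 with 21 positive, beside the 0.05 of all genes. At an unadjusted p under 0.05 stood 4 of the 37 higher and 3 lower, beside 6.62% and 3.33% of all genes. Without control replicate 1 their median was 0.13, beside 0.07 for all genes. By limma 4 of them then passed, beside 4.13% of all genes. These were Vegfa (log2 difference 0.66), Timp3 (0.67) and Mcl1 (0.74), higher, and Klf5 (-0.60), lower.

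The list of astrocyte genes under gp130 and STAT3 had a median of 0.19 over 28 measured, with 21 positive and 0 past the threshold. At an unadjusted p under 0.05 stood 7 higher and 0 lower, beside 6.62% of all genes higher and 3.33% lower. The list is not limited to astrocyte genes, as it also holds precursor and regulatory genes such as Notch1, Hes1, Hes5, Ep300 and Dnmt1. Hes5 and Dnmt1 are among the 7 higher. Of the 28, 25 were above background on at least 3 arrays. Without control replicate 1 the list's median was 0.27, beside 0.07 for all genes. By limma 4 then passed, all higher, beside 3.49% of all genes higher and 0.637% lower. Aqp4 differed by 0.69 ± 0.11 (log2, SE). Gja1, the gap junction gene connexin 43, read 15.3, 15.8 and 8.49 in anti-miR-335 arrays, against 6.27, 7.17 and 4.37 in controls (1.13 ± 0.24). Hes5, a Notch effector of precursors, read 4.52, 4.41 and 4.39 against 2.10, 2.89 and 2.82 in controls (0.79 ± 0.15), and the DNA methyltransferase gene Dnmt1 differed by 0.28 ± 0.10. For all 4, each anti-miR-335 array lay above each control. Gfap, the classical STAT3-driven astrocyte gene, is named after its values were seen: it read 5.42, 9.63 and 9.84 in anti-miR-335 arrays, against 8.04, 4.80 and 5.72 in controls, and overlapped (0.41 ± 0.24). Cst3, the cystatin C gene, also named after its values were seen, ran the other way without overlap, at 337, 385 and 338 in anti-miR-335 arrays against 448, 406 and 476 in controls (-0.33 ± 0.16). S100b (-0.10 ± 0.14), Clu (-0.10 ± 0.11) and Apoe (-0.11 ± 0.17) overlapped. In bulk samples, more cells of a type and more RNA per cell cannot be told apart.

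**Figure D4:**
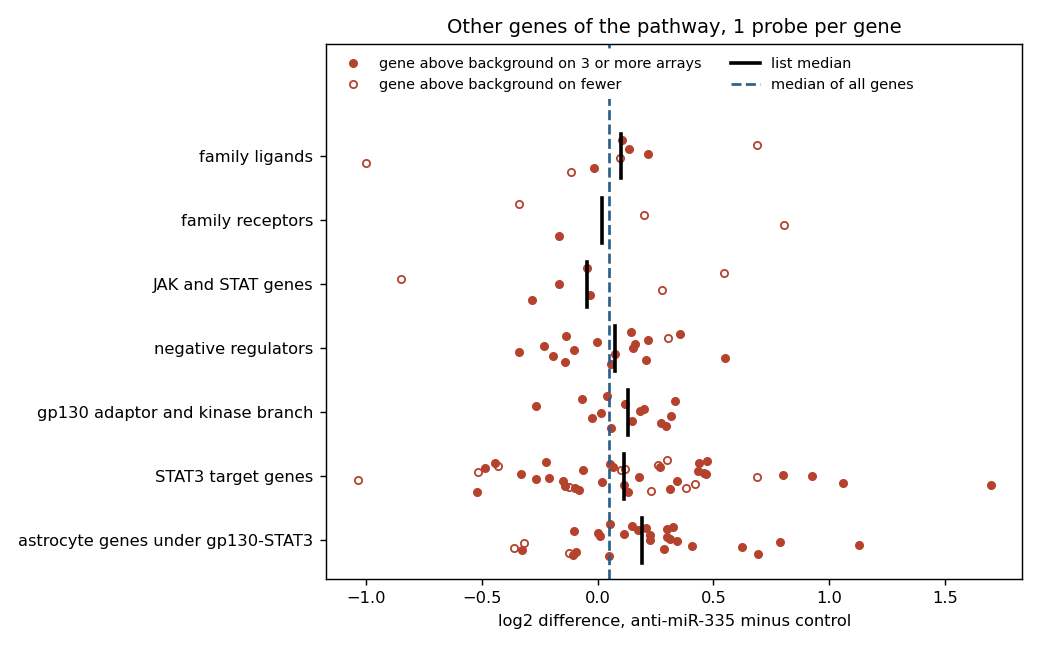
Log2 difference, anti-miR-335 minus control, of the other listed genes that were measured, 1 point per gene and 1 row per list (vertical jitter has no meaning). Filled points are above background on at least 3 of 6 arrays. Black bars are list medians and the dashed line is the median of all genes, 0.05. The locus neighbours are not drawn. Medians of the lists shown run from -0.05 for JAK and STAT genes to 0.19 for the astrocyte list, which also holds precursor and regulatory genes. The points furthest right are Egr1 (1.70), Gja1 (1.13) and Fos (1.06).

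Markers of the labelled cells were present: 10 of 11 neural precursor markers and 4 of 6 dorsal telencephalon markers were above background on at least 3 arrays, while Hes1 and Emx1 were above it on none. All 8 astrocyte markers were detected, with summed intensities of 505, 490 and 474 in anti-miR-335 arrays and 486, 433 and 440 in controls. Of the 28 measured genes of the list of astrocyte genes under gp130 and STAT3, 11 stand in the astrocyte or precursor marker lists. All 7 measured oligodendrocyte lineage markers were also detected, at sums of 97.9 to 127 in anti-miR-335 arrays and 97.3 to 134 in controls. Single members of that list ran differently from the sum. Pdgfra, the growth factor receptor gene of oligodendrocyte precursors, read 13.2, 17.6 and 17.0 in anti-miR-335 arrays against 9.64, 7.01 and 7.21 in controls, higher without overlap as Cntf was (log2 difference 1.01 ± 0.15). Sox10 was also higher without overlap (0.38 ± 0.13). The other 5 were negative with overlapping groups, and the list's median was -0.14. Cspg4 differed by -0.24 ± 0.16, Cnp by -0.11 ± 0.12, Olig2 by -0.29 ± 0.54, Mbp by -0.14 ± 0.26 and Olig1 by -0.20 ± 1.11. Olig1 was low on 1 array of each group, at 1.61 on anti-miR-335 replicate 3 and 1.93 on control replicate 1. Of the neuron markers 5 of 7 were detected, with sums of 12.4 to 16.6 in anti-miR-335 arrays and 9.83 to 13.4 in controls. Of the 7, 6 had a positive difference, with a median of 0.35. Dcx read 3.64, 5.53 and 5.81 in anti-miR-335 arrays against 2.56, 2.44 and 2.27 in controls. It was higher without overlap (log2 difference 1.02 ± 0.18). The other neuron markers overlapped between the groups, Syt1 was negative (-0.11 ± 0.21), and Map2 had its highest value, 5.87, on control replicate 1. Schwann cells and microglia can both make or respond to these cytokines: 3 of 4 Schwann cell markers were detected, with Erbb3 on no array, but of these Egr2 is also in the immediate early list and Sox10 in the oligodendrocyte list, which leaves Pmp22. Detected were also 2 of 7 microglial markers, with Ptprc, Tyrobp and Itgam on none. Schwann cell markers summed to 43.6 to 51.8 in anti-miR-335 arrays and 35.1 to 57.0 in controls, and microglial markers to 5.94 to 6.02 in anti-miR-335 arrays and 7.26 to 7.51 in controls. The detected microglial markers were opposed: Trem2 was lower without overlap (-0.57 ± 0.11) and Cx3cr1 higher without overlap (0.58 ± 0.25). Endothelial markers were detected for 4 of 7 (sums of 2.59 to 4.24 in anti-miR-335 arrays, 3.18 to 4.17 in controls), ependymal markers for 2 of 5 (3.004 to 3.82, and 3.44 to 3.93 in controls) and mesenchymal markers for 1 of 8 (2.24 to 2.55, and 2.45 to 3.06 in controls). The part of any cell type in the Cntf and Socs3 values was not tested.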

How the data were processed

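Biotin-labelled cRNA from 2 µg of total RNA was hybridised for 18 h per the labels, and the authors applied global median normalization; the deposited values are linear intensities in array medians, from CodeLink Expression Analysis 4.1.0.29054 per the file headers. Scanner output, used for replicate 1 of each group, equalled the deposited intensities (36032 values for anti-miR-335, 35976 for control, within 0.0001), and its raw intensity was the spot mean minus the local background median. The deposited scanner files also hold a signal strength score from that software, which was not used. Scale and direction are thus settled on those arrays; the medians of the gene probes ranged from 0.991 to 0.996 over the 6 arrays. Of 36227 rows, 1260 control spots were left out. The platform annotation gave 21615 gene probes 1 symbol, 681 several and 12671 none; 21487 identifiers were found in RefSeq (GRCm38.p6), which changed 0 symbols.

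Before taking log2, 0.163, the 5th percentile of the positive intensities, was set as a floor. The comparison used limma 3.58.1 under R 4.3.3 (lmFit, eBayes with an intensity trend, no covariate, two-sided), with Benjamini-Hochberg adjustment over 34847 probes, those having 2 or more values in both groups. The number of arrays, 3 per group, limits the precision. Slide and scan could not be tested as batches, since scanner headers were used for 1 array per group. Same-numbered arrays were not paired, since the labels do not say that they share a culture. Their deviations from the group means correlated at -0.23, 0.04 and -0.26 over 17843 probes. With 3 arrays per group these values cannot settle whether they are paired. The script was tested on simulated data.

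The members and the gene lists were chosen with earlier results of these data known. All member probes are named, and from each list up to 4 genes of smallest p above background on all 3 arrays of a group; the measured neighbours of Cntf and the 5 probes most like Cntf (log2 range of at least 0.5) complete the rule. Alternatives covered normalization, the floor, dim probes, the variance model, array weights, a replicate block and left-out arrays.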

Additional observations from a re-analysis of the deposited data

How the results depend on the processing

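The count of 0 probes past an adjusted p of 0.05 by limma, and the counts over the 14 probes and the 121 further listed genes, kept their value under other floors (0.0725 and 0.331), without dim probes and without the intensity trend. A replicate block gave 0 for all 3 counts. The labels do not say whether same-numbered samples share a culture. Quantile normalization gave 1 over all probes and 0 for the other 2 counts. A robust trend gave 3, with 1 of the 14 (Cntf), and array weights gave 474, with 2 of the 14 (Cntf and Socs3) and 8 listed genes; the weight of control replicate 1 was 0.366. Leaving out arrays or replicate pairs gave 0 to 1571 over all probes, 0 to 2 of the 14 and 0 to 16 listed genes. The counts above 0 over all probes were 1 with anti-miR-335 replicate 1 left out, 1100 with control replicate 1 left out (12 listed genes) and 1571 with the replicate 1 pair left out (16 listed genes, Glyat included); the last 2 settings also called Cntf and Socs3 among the 14. The cause was not tested. Of 231 log2 differences of the 14 probes under these settings, 5 moved by more than the pooled SD: Cntf to 1.10, Socs3 to 2.05, Jak1 to 0.13 and Stat3 probe 1 to 0.23 without the replicate 1 pair, and Lifr probe 2 to -0.37 without the replicate 3 pair. Signs turned in 26, all on Il6st probe 3, Jak1, Jak2, both Lifr probes and Stat3 probes 1 and 2. Signal over background limits Lifr, Il6st probes 2 and 3, Cntfr and Jak2, which were below the background limit on at least 1 array.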

Other observations

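Some STAT3 target genes outside the immediate early list ran in the opposite direction to Socs3; they are named after their values were seen, and none passed by limma over all probes. A2m, the acute phase protease inhibitor alpha-2-macroglobulin, read 2.25, 2.74 and 2.92 in anti-miR-335 arrays against 3.80, 3.99 and 3.52 in controls, a log2 difference of -0.52 ± 0.14 (SE). Timp1, an inhibitor of matrix metalloproteinases, read 2.37, 3.03 and 3.14 in anti-miR-335 arrays against 3.20, 4.54 and 3.90 in controls (-0.44 ± 0.17). Both were lower in all 3 anti-miR-335 arrays than in any control, control replicate 1 included. Icam1, an adhesion molecule gene, was above background on none of the anti-miR-335 arrays and on 2 of the 3 controls. Higher without overlap were Gadd45g, a growth arrest and DNA damage response gene (70.5, 94.7 and 80.3 in anti-miR-335 arrays against 63.8, 59.8 and 68.9 in controls, 0.34 ± 0.13), and the transcriptional repressor gene Bcl6 (2.75, 3.16 and 3.25 against 2.52, 2.46 and 2.37 in controls, 0.31 ± 0.13). Mcl1, a survival gene of the Bcl-2 family, followed the pattern of Socs3, at 8.77, 11.3 and 11.5 in anti-miR-335 arrays and 11.2, 6.19 and 6.34 in controls (0.46 ± 0.21, and 0.74 without control replicate 1).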
